A study of Mus musculus with 6 samples.

Results

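The 7 globin genes described here are the primitive (embryonic) genes Hbb-y (ENSMUSG00000052187), Hbb-bh1 (ENSMUSG00000052217) and Hba-x (ENSMUSG00000055609) and the adult genes Hba-a1 (ENSMUSG00000069919), Hba-a2 (ENSMUSG00000069917), Hbb-bs (ENSMUSG00000052305) and Hbb-bt (ENSMUSG00000073940) of the mouse. They were taken by symbol from a table of 26147 genes, in which each of them has 1 row, and all 7 passed the filter on low values (3 or more libraries at 10 or above, met by 18914 genes). The table holds polyadenylated RNA of embryonic day 13.5 retina in 6 libraries, all from mice kept on C57BL/6J. The 3 wild-type libraries came from sibling embryos that were Dkk3-Cre negative and Tbx3 Fl/+, so they carried 1 floxed allele. The 3 Tbx3 conditional knockout (Tbx3 cKO) libraries came from embryos that were Dkk3-Cre+ and Tbx3 ∆Fl/∆Fl, and Cre itself and the loss of Tbx3 cannot be told apart. These libraries are called knockout 1, 2 and 3 below. The Dkk3-Cre transgene acts in retinal progenitors, whereas globin messages are products of red blood cells, which reach the retina with its vessels and the surrounding tissue. Neither the number of embryos in a library, nor any washing out of blood, nor a litter is stated, and the p-values below measure only the spread between these samples, which may be technical.

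Haemoglobin is a tetramer of alpha-type and beta-type chains, each holding haem. In the mouse, the first wave of red cells, the primitive cells of the yolk sac, circulates with a nucleus and makes the embryonic chains, from Hba-x (zeta) on the alpha side and from Hbb-bh1 (beta H1) and Hbb-y (epsilon y) on the beta side, together with adult alpha chains. As primitive cells mature, Hbb-bh1 gives way to Hbb-y. Definitive cells, made in the fetal liver, enter the blood around midgestation and use the adult alpha genes Hba-a1 and Hba-a2 and the adult beta genes Hbb-bs and Hbb-bt.

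The coding sequences decide how well the genes can be told apart by reads, and the stretches that separate the chains are shown for that reason. In GENCODE M21 transcripts, the reading frames of the 4 beta-type genes are each 444 bases and those of the 3 alpha-type genes 429 bases. Over the first 60 bases from the start codon, with capitals marking each base that differs from Hbb-bs, the embryonic beta-type genes differ at 19 (Hbb-y) and 18 (Hbb-bh1) positions.
Hbb-bs: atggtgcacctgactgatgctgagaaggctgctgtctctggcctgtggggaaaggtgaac
Hbb-y: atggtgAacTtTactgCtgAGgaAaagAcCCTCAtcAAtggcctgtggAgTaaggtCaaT
Hbb-bh1: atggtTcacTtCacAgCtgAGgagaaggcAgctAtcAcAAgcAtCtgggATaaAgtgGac
On the alpha side, with capitals marking bases that differ from Hba-a1, Hba-x differs at 28 of the first 60.
Hba-a1: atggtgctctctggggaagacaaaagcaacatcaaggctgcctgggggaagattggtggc
Hba-x: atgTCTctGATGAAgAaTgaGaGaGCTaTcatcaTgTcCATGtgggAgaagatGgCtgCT
Over the whole frame Hbb-y is 74.3% and Hbb-bh1 74.1% identical to Hbb-bs, and Hba-x is 62.0% identical to Hba-a1, and none of these pairs shares a stretch of 50 bases. The adult copies are another case. Hba-a1 and Hba-a2 differ at 1 base of the frame, C381T counted from 1 at the A of the start codon with the base of Hba-a1 first. Hbb-bs and Hbb-bt also differ at 1 base, C417T with the base of Hbb-bs first. The capital marks that base in these windows of 30 bases.
Hba-a1: gcatgcctctctggaCaaattccttgcctc
Hba-a2: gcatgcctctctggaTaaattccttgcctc
Hbb-bs: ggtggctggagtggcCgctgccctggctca
Hbb-bt: ggtggctggagtggcTgctgccctggctca
Of the 50-base stretches of the Hba-a2 transcript, 86.9% also occur in Hba-a1, and of those of Hbb-bs, 65.8% occur in Hbb-bt. The split between the copies of a pair is therefore uncertain, and their sums are used wherever the result allows.

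Of the 7 genes, 6 have an entry in the RefSeq promoter table (build GRCm38.p6). The 110 bases before the start of 5 of them are given because primitive and adult genes, and the adult beta copies, differed in their levels across libraries (Hba-a2 has almost the same sequence as Hba-a1). Capitals mark every match, on either strand, to CACCC (the core of the box bound by Klf1), to CCAAT (a common promoter box), to GATAA (known as a site of Gata1 and its relatives) and to ATAAA (found near the start site of several globin genes), and neighbouring matches can overlap.
Hbb-y (GRCm38.p6 chr7:103853208-103853317, minus strand): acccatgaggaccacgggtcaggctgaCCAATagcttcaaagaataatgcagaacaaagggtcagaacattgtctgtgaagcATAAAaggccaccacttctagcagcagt
Hba-x (GRCm38.p6 chr11:32276490-32276599, plus strand): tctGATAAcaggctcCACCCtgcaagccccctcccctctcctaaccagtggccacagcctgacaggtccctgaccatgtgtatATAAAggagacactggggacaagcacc
Hba-a1 (GRCm38.p6 chr11:32283562-32283671, plus strand): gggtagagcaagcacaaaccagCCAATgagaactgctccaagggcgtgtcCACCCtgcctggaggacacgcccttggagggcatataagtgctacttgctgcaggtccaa
Hbb-bs (GRCm38.p6 chr7:103827929-103828038, minus strand): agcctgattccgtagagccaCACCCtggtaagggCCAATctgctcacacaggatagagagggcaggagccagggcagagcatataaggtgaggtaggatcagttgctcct
Hbb-bt (GRCm38.p6 chr7:103813924-103814033, minus strand): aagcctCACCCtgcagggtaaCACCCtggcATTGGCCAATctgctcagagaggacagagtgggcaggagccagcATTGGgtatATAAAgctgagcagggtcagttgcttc
In this window CACCC is present in Hba-x, Hba-a1, Hbb-bs and Hbb-bt, and CCAAT in Hbb-y, Hba-a1, Hbb-bs and Hbb-bt. Over all 32851 promoters of the table cut to the same 110 bases, 29.6% hold CACCC, 20.2% CCAAT, 9.43% GATAA and 18.9% ATAAA, and 5.42% hold both CACCC and CCAAT. These matches describe the letters only.

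The labels held for the targeted gene: Tbx3 was 1998 to 2577 in wild type and 40.3 to 58.9 in the knockouts. Estimated depth was 21482300 to 27173700 reads per library. The libraries held retina, with Pax6 between 17968 and 18941 in all 6, but markers of other tissue differed between them, also between libraries of the same genotype. Lens genes (8 of 8 in the file, none at 0 in any library) summed to 178234 in wild type 2, 64378 in wild type 3 and 124449 in knockout 2, against 624 to 876 in wild type 1, knockout 1 and knockout 3. Knockout 3 had the lowest summed retina genes (44945, against 65068 to 70011 elsewhere), and wild type 1 the lowest periocular mesenchyme genes (909, against 3164 to 15745).

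The total of the 7 globin genes was higher in every knockout library than in any wild-type library. Summed over the 7 genes, the normalized read counts were 96350 in wild type 1, 84950 in wild type 2 and 62954 in wild type 3. They were 191968 in knockout 1, 277233 in knockout 2 and 618518 in knockout 3. The lowest knockout library was 1.99 times the highest wild type, and globins took 0.258 to 0.385% of all normalized reads in wild type and 0.817 to 2.58% in the knockouts. On the log2 scale the totals were 16.29 ± 0.32 and 18.29 ± 0.86 (SD, n = 3 each), a difference of 1.999. An exact two-sided permutation test gave p = 0.1, the smallest that 3 against 3 allows. Knockout 3 was the highest by far, and the difference was 1.52 without it. The sum of the primitive genes overlapped, with 48053 in knockout 1 and 48339 in wild type 2 (exact permutation p = 0.2). The sum of the adult genes did not, at 28686 to 82775 in wild type and 123044 to 260524 in the knockouts. More red cells and more globin RNA per red cell cannot be told apart in these bulk samples.

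**Figure D1:**
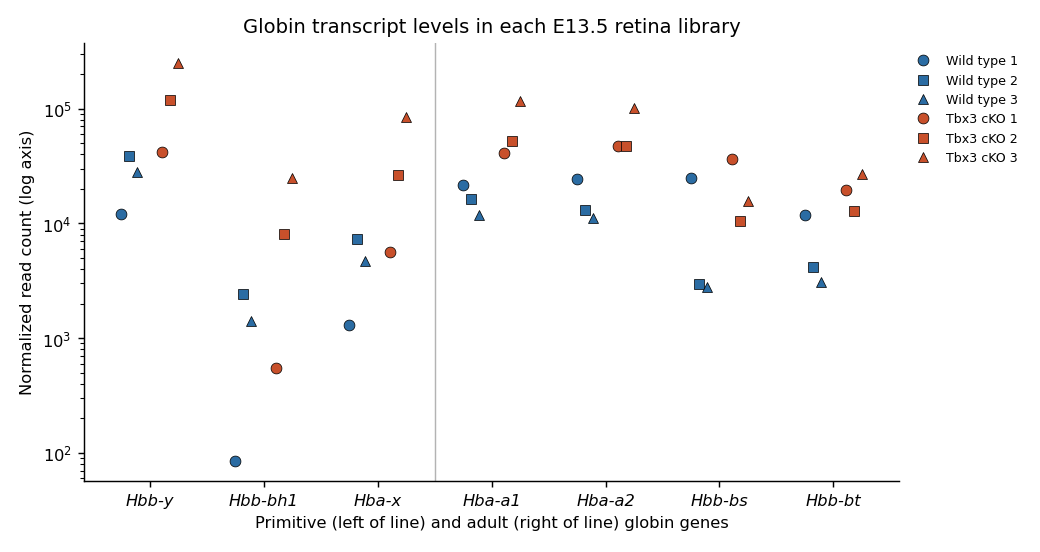
Normalized read count (log axis) of the 7 globin genes in each library; blue is wild type, orange is the knockouts (labelled Tbx3 cKO), and circles, squares and triangles are the libraries numbered 1, 2 and 3. Circles lie lowest within their genotype for the 3 primitive genes on the left and highest within their genotype for Hbb-bs, whose 2 circles read 24902 and 36320.

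Among the primitive genes, Hbb-y was the most abundant. Its values were 12188, 38513 and 28155 in wild type 1, 2 and 3 and 41919, 119830 and 248650 in knockout 1, 2 and 3. The groups did not overlap, although knockout 1 stood only just above wild type 2, and the log2 fold change was 2.19 (SE 0.68, adjusted p by limma = 0.327). Hbb-bh1, the earlier of the beta-type embryonic genes, was 85.0, 2442 and 1410 in wild type, against 549, 8040 and 25119 in the knockouts. It had the widest spread of the 7, with 296-fold between its highest and lowest library, and its groups overlapped because knockout 1 lay below wild type 2 and 3. Its log2 fold change of 2.85 had an SE of 1.67 and a 95% interval of -1.10 to 6.80 (limma adjusted p = 0.454). Hba-x, the embryonic alpha-type gene, was 1302, 7384 and 4703 in wild type, against 5585, 26320 and 84225 in the knockouts. Here too knockout 1 lay inside the wild-type range, with a log2 fold change of 2.699 (SE 1.03, adjusted p by limma = 0.350). In all 3 genes the library numbered 1 was the lowest of its genotype.

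The adult alpha genes separated the genotypes most evenly. Hba-a1 was 21566, 16464 and 11759 in wild type, against 41066, 52663 and 116439 in the knockouts. Hba-a2 was 24411, 13065 and 11041 in wild type, against 46868, 47023 and 101269 in the knockouts. Neither gene overlapped between groups, and their log2 fold changes were 1.97 (SE 0.40) and 1.995 (SE 0.39), the smallest errors among the 7 (limma adjusted p = 0.220 and 0.211). The adult beta genes did not follow this order. Hbb-bs was 24902, 2946 and 2817 in wild type, against 36320, 10465 and 15760 in the knockouts. Its highest values in each genotype were those of the libraries numbered 1, and wild type 1 exceeded knockout 2 and 3, so the groups overlapped (log2 fold change 1.62 with SE 0.88, adjusted p by limma = 0.429). Hbb-bt was 11896, 4137 and 3069 in wild type, against 19661, 12894 and 27056 in the knockouts, without overlap (log2 fold change 1.83 with SE 0.51, adjusted p by limma = 0.318). The split of Hbb-bt from Hbb-bs is uncertain, and the sum of the 2 genes did overlap. That sum was 36798 in wild type 1, above the 23359 of knockout 2 (exact permutation p = 0.2).

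After Benjamini-Hochberg adjustment over all 18914 genes, limma-trend called 0 of the 7 globin genes and limma-voom on estimated reads also called 0, where limma-trend called 0.0634% of all genes tested in either direction and 0.0317% as higher. At an unadjusted p under 0.05, 5 of the 7 were higher in the knockouts (Hbb-y, Hba-x, Hba-a1, Hba-a2 and Hbb-bt), beside 6.39% of all genes tested. Groups did not overlap for 4 of the 7 (Hbb-y, Hba-a1, Hba-a2 and Hbb-bt), all higher, beside 10.6% of all genes tested. For Hbb-bt this depends on the uncertain split from Hbb-bs, since the sum of that pair overlapped. Hba-a1 and Hba-a2 are near copies too, so these counts do not hold them as 2 independent genes. Their sum did not overlap, at 22800 to 45977 in wild type and 87934 to 217708 in the knockouts. All 7 log2 fold changes were positive, with a median of 1.995, against a median of -0.02 over all genes. Hba-a2 passed with library weights (limma adjusted p = 0.0395), and Hba-a2 and Hbb-bt passed with wild type 1 and knockout 3 left out (limma adjusted p = 0.00997 and 0.0378). Without knockout 2, 3 of the 7 were higher at an unadjusted p under 0.05. The share of all genes in that fit was not counted.

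The make-up of the globin pool differed between libraries along a line that crossed the genotypes. Values were divided by transcript length so that genes could be set beside each other, and each gene was expressed as a share of the 7. The primitive genes made up 13.8% of the pool in wild type 1 and 24.4% in knockout 1, but 56.2 and 53.6% in wild type 2 and 3 and 54.7 and 56.6% in knockout 2 and 3. The 4 libraries numbered 2 and 3 thus lay between 53.6 and 56.6% whatever their genotype, although their globin totals differed widely. In these 4 libraries Hbb-y was the leading globin message, at 41.3 to 46.2% of the pool, followed by the adult alpha genes, which together took 35.8 to 37.4%. Hba-x took 5.98 to 11.05%, adult beta genes 6.68 to 9.01% and Hbb-bh1 2.34 to 4.305%. In wild type 1 the order was Hba-a2 (28.9%), Hbb-bs (26.0%), Hba-a1 (20.2%), Hbb-y (12.6%), Hbb-bt (11.1%), Hba-x (1.07%) and Hbb-bh1 (0.0909%). Knockout 1 lay between, nearer to wild type 1, with Hba-a2 at 27.9%, Hbb-y at 21.8%, Hbb-bs at 19.1% and Hbb-bh1 at 0.296%.

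**Figure D2:**
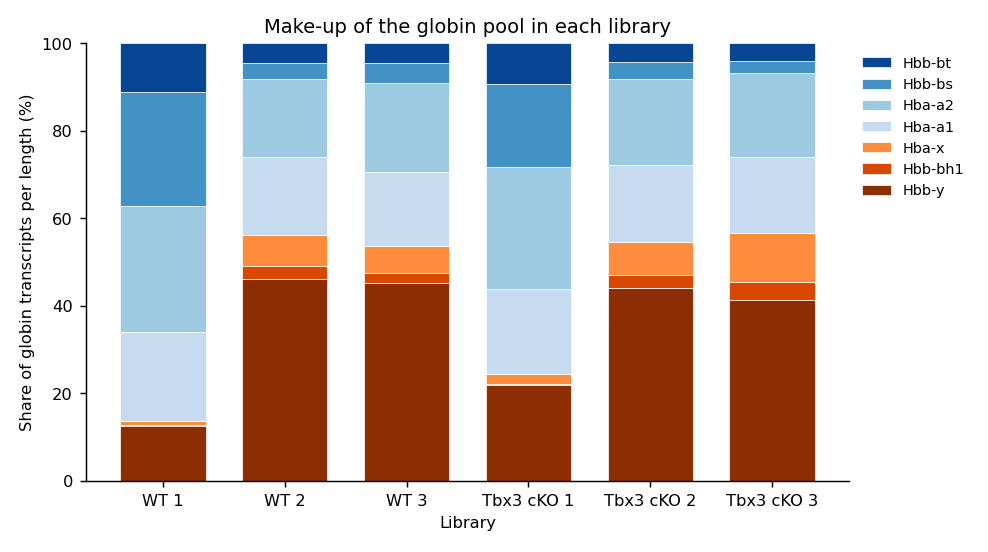
Share (%) of the length-corrected globin transcripts taken by each of the 7 genes in each library, with primitive genes in browns and adult genes in blues. The brown part is 13.8% in wild type 1 and 24.4% in knockout 1 and 53.6 to 56.6% in the other 4 libraries.

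The ratio of primitive to adult globins, taken from the normalized read counts without length correction, did not differ detectably by genotype. It was 0.164, 1.32 and 1.19 in wild type 1, 2 and 3 and 0.334, 1.25 and 1.37 in knockout 1, 2 and 3. The groups overlapped, and the low values were those of the libraries numbered 1. On the log2 scale the ratio was -0.65 ± 1.70 in wild type and -0.27 ± 1.14 in the knockouts (SD, n = 3 each), a difference of 0.38 (exact permutation p = 0.6, and 0.817 adjusted over the 7 ratios computed). With both libraries numbered 1 left out, the difference was 0.06 between knockout 2 and 3 and wild type 2 and 3, while the globin total in these 4 libraries differed by 2.501 on the log2 scale. Between the libraries numbered 1, the knockouts exceeded wild type by 1.03 in the log2 ratio and by 1.99-fold in the total. Without wild type 1 alone the difference of the ratio turned to -0.59, so its sign rests on that library.

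Each ratio that marks a step of globin switching placed the same libraries low. Hba-x over the adult alpha genes was 0.0283 in wild type 1 and 0.0635 in knockout 1, against 0.206 to 0.387 in the other 4. Hbb-bh1 over Hbb-y, the maturation step within primitive cells, was 0.00697 and 0.0131, against 0.0501 to 0.101. The 2 embryonic over the 2 adult beta genes gave 0.334 and 0.759, against 5.02 to 6.39, a gap of 6.62-fold between the nearest libraries of either kind. Hbb-bt over Hbb-bs was 0.478 and 0.541, against 1.09 to 1.72, within the uncertainty of splitting the copies. None of the 7 ratios passed the test between genotypes (exact permutation p of 0.4 to 0.9, adjusted p of 0.817 to 0.9). The 2 libraries with low ratios were also low in lens genes, which were also low in knockout 3, where the ratios were among the highest. The part of embryo age, litter or dissection in these ratios was not tested.

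**Figure D3:**
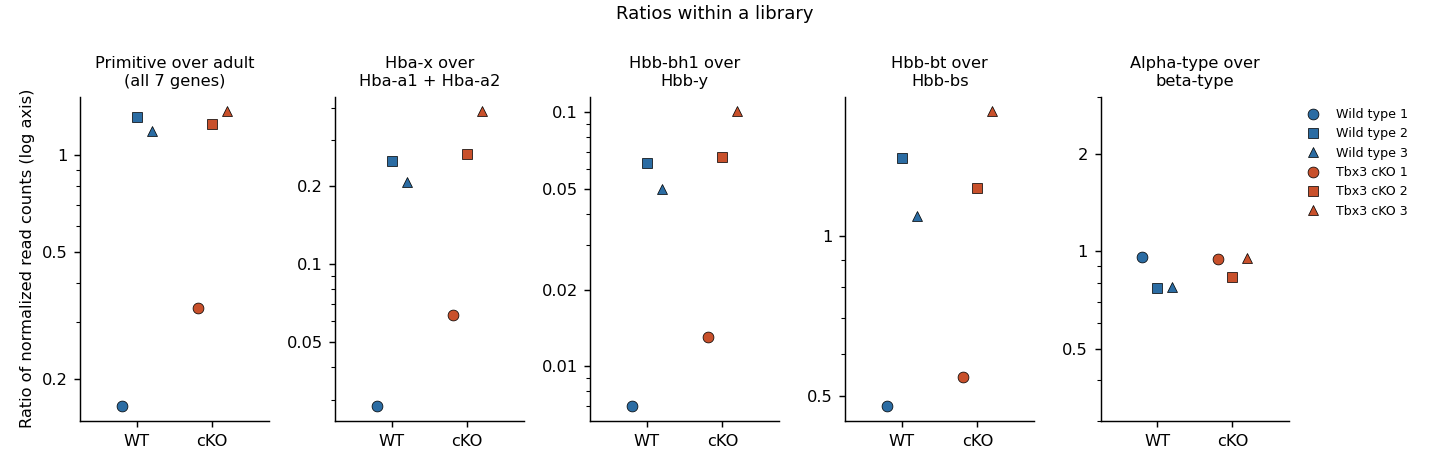
Ratios of normalized read counts within a library (log axes, each with its own scale), wild type on the left and the knockouts on the right of each panel; symbols are as in the plot of globin levels. The circles, libraries numbered 1, lie apart below the other 4 libraries in the first 4 panels, and all 6 libraries lie between 0.768 and 0.963 in the panel of alpha-type over beta-type.

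Alpha-type and beta-type messages were close to balance in every library. Alpha-type over beta-type was 0.963, 0.768 and 0.776 in wild type, against 0.950, 0.833 and 0.954 in the knockouts, a range of 1.25-fold against 8.38-fold for the primitive over adult ratio. Per length it ran from 0.747 to 1.01. The log2 difference between genotypes was 0.13 (exact permutation p = 0.4). Adult alpha messages took 35.8 to 49.1% of the pool in all 6 libraries, a narrow range beside that of adult beta messages, at 6.68 to 37.1%. Hba-x took 1.07 to 11.05% and Hbb-y 12.6 to 46.2%.

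Of 10 other globin family genes looked for, 5 were matched by symbol and 3 were tested, and the others are not analysed here. The theta-type genes lie beside the adult alpha genes. Hbq1b was 2.36, 18.8 and 6.28 in wild type, against 4.03, 50.9 and 125 in the knockouts, with both libraries numbered 1 at the low end, as for the primitive genes. Hbq1a was 2.31, 0 and 0 in wild type, at or under the 3 reads that a value of 0 allows (2.69 to 2.82 there), and 12.1, 19.6 and 39.1 in the knockouts. Hbq1a reached 10 only in the knockouts, so it passed the filter through the group where it was high. Its p-value is therefore no support for a difference (limma adjusted p = 0.228). The theta genes share 36.8% of the 50-base stretches of Hbq1a, so their split is uncertain too. Among globins of cells other than erythrocytes, Ngb (neuroglobin, a neuronal globin) was 3.76 to 9.87 in wild type and 4.55 to 28.2 in the knockouts, and Cygb (cytoglobin, of fibroblast-like cells) 80.2 ± 34.9 and 100.03 ± 47.3 (SD, n = 3 each, limma adjusted p = 0.810). Adgb (androglobin) was at most 24.2.

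Erythroid genes other than globins were mostly higher in the knockouts as well, with a lower median than the globins. The difference between the lists was not tested. Of 48 listed, 46 were tested. limma-trend called 0 after adjustment (limma-voom also 0), and 28 were higher and 0 lower at an unadjusted p under 0.05, beside 6.39 and 7.16% of all genes tested. Groups did not overlap, with the knockouts higher, for 28 of the 46, beside 10.6% of all genes, and for 1 (Add2) with the knockouts lower, beside 11.7%. The median log2 fold change was 1.29, with 41 positive and 5 negative. Without wild type 1, knockout 2 or knockout 3, 18, 17 and 18 genes were higher at an unadjusted p under 0.05. The shares of all genes in these fits were not counted. Knockout 3 was highest in 36 of the 46 and wild type 1 lowest in 31.

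All 8 genes of haem synthesis had positive log2 fold changes, with a median of 0.70, beside 9087 positive among all 18914 genes tested. Of the 8, 5 were higher at an unadjusted p under 0.05. For this list and those that follow, 6.39% of all genes tested were higher at that level and 7.16% lower. Alas2, the erythroid enzyme that starts the pathway, was 686, 442 and 335 in wild type, against 1203, 1443 and 3794 in the knockouts (log2 fold change 2.01 with SE 0.46, adjusted p by limma = 0.279). Fech, which inserts iron into the ring, was 839 ± 125 in wild type and 1989 ± 1158 in the knockouts (SD, n = 3 each, here and for the pairs that follow), and Ppox 927 ± 88.4 and 1559 ± 419. For iron uptake, 4 of 5 were higher at that level, among them the mitochondrial importer Slc25a37 (1296 ± 343 and 4506 ± 3478), while the transferrin receptor Tfrc, used by all dividing cells, was 2690 ± 425 and 3415 ± 257. Slc11a2, an iron transporter, was 681 ± 101 and 1009 ± 295. Among 15 genes of the red cell membrane and its skeleton, 9 were higher and 0 lower at that level, with a median of 2.38. The anion exchanger Slc4a1 was 287, 1276 and 872 in wild type, against 1827, 3170 and 11627 in the knockouts (log2 fold change 2.57 with SE 0.77, adjusted p by limma = 0.322). The surface protein gene Ermap was 13.1, 250 and 151 against 225, 653 and 1894. Members that other tissues also use were among the exceptions, with Epb41 at 12851 ± 1149 and 11958 ± 1245, Add2 at 3305 ± 1954 and 1737 ± 154, Sptb at 1084 ± 902 and 1745 ± 1267 and Gypc at 511 ± 86.9 and 724 ± 184. Of the other erythroid proteins (11 tested, 5 higher at that level), Car2 (carbonic anhydrase) was 351 ± 58.9 and 1699 ± 1473 and Trim10 91.4 ± 41.3 and 662 ± 541. In the same list Bpgm, which makes the ligand that lowers oxygen affinity, was 1236 ± 147 and 2060 ± 906, Cat 1980 ± 65.5 and 2384 ± 376, Prdx2 10216 ± 246 and 10807 ± 1429 and Bnip3l 3666 ± 148 and 3616 ± 620.

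**Figure D4:**
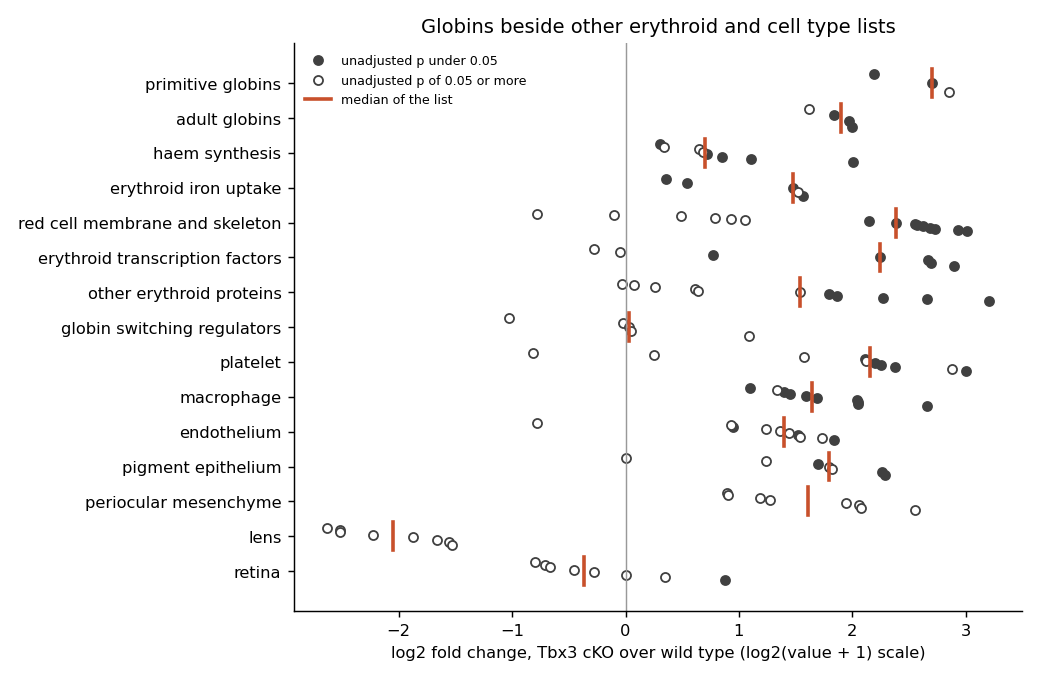
log2 fold changes, the knockouts over wild type, of the tested members of each list; filled points have an unadjusted p under 0.05 by limma-trend, and the orange bar is the median. The 7 globins lie between 1.62 and 2.85, lens genes are all negative, and lists of other blood and tissue cells are mostly positive too.

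Of the erythroid transcription factors, 5 of 7 were higher at an unadjusted p under 0.05, beside 6.39% of all genes tested, with a median log2 fold change of 2.24. Tal1 was 55.1, 110 and 90.6 in wild type, against 299, 482 and 996 in the knockouts (log2 fold change 2.66 with SE 0.47, adjusted p by limma = 0.192). Gata1, the master factor of red cell formation, was 4.67, 18.8 and 4.49 against 25.2, 47.8 and 198. Klf1, which binds the CACCC box shown above, was 11.2, 37.6 and 23.3 against 40.3, 77.4 and 373. Nfe2 was 38.3 ± 23.6 and 279 ± 252 and Zfpm1, the partner of Gata1, 667 ± 173 and 1118.5 ± 167. These 5 were each higher without overlap between groups, beside 10.6% of all genes tested, while Lmo2 (265 ± 261 and 199 ± 126) and Ldb1 (6397 ± 382 and 6223 ± 729) overlapped. Of the factors known for control of globin switching, none passed at an unadjusted p under 0.05, and the median of the 5 was 0.03. Bcl11a, which represses embryonic globins in definitive cells, was 979 ± 388 and 933 ± 222, and its highest values were in wild type 1 (1428) and knockout 1 (1186), against 745 to 838 elsewhere. Zbtb7a was also highest in the libraries numbered 1, with 864 in wild type 1 and 967 in knockout 1, against 517 to 715 elsewhere. Sox6, the partner of Bcl11a, was 64.4, 175 and 181 in wild type, against 203, 140 and 706 in the knockouts, with wild type 1 the lowest. Myb was 5749 ± 1632 and 3246 ± 1930 and Klf3 2257 ± 43.1 and 2355 ± 362 (SD, n = 3 each). Which cells these transcripts came from was not tested.

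Set against the globin total of the same library, erythroid genes differed in how far they varied. Alas2 was nearly constant, at 7.12, 5.197 and 5.31 normalized reads per 1000 globin reads in wild type and 6.27, 5.204 and 6.13 in the knockouts. That range of 1.37-fold was the narrowest among the 46 genes, although Alas2 itself and the globin total each varied several-fold. The log2 difference of this ratio between genotypes was 0.01 (exact permutation p = 0.9). Ahsp, the chaperone of free alpha chains, was 1.89, 0.973 and 0.741 per 1000 globin reads in wild type and 2.44, 1.04 and 0.977 in the knockouts, so both libraries numbered 1 were highest. Against adult globins alone Ahsp held between 1.63 and 3.25 per 1000. Slc4a1 was 2.98, 15.02 and 13.9 in wild type, against 9.52, 11.4 and 18.8 in the knockouts, and Ermap 0.136, 2.95 and 2.39 against 1.17, 2.36 and 3.06, both lowest in the libraries numbered 1. Wild type 1 was the lowest library in 17 of the 46 ratios, and knockout 3 in many others, among them Prdx2 and Epb41. The ratio was lower on average in the knockouts for 29 of the 46. It was lower in every knockout library for 19 and higher in every one for 2. The divisor, the globin total, was itself higher in every knockout library, so a gene with unchanged counts gives a lower ratio. The same count over all genes was not made.

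**Figure D5:**
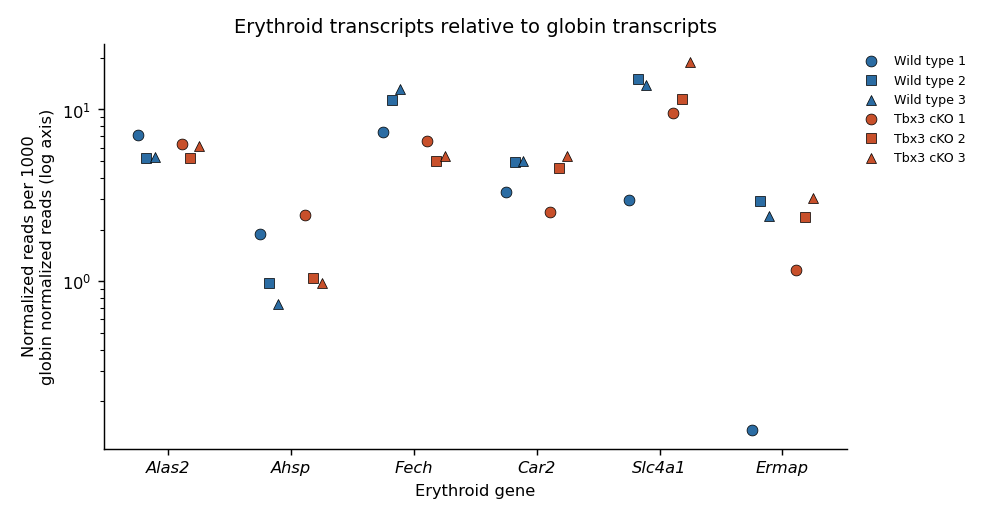
Normalized reads of 6 erythroid genes per 1000 globin normalized reads in each library (log axis); symbols are as in the plot of globin levels. Alas2 stays between 5.197 and 7.12, the circles are high for Ahsp and low for Slc4a1 and Ermap, and Fech lies lower in the knockouts.

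Genes outside the family were ranked by the Pearson correlation of log2 values over the 6 libraries with the summed adult and the summed primitive globins, among 12568 genes with a mean of at least 50. With so many genes and 6 libraries, high values arise in any case, and the ranking is a description. Nearest to the adult sum were Lmo3 (r = 0.994), Pxylp1 (0.986), Ahsp (0.986), Parp9 (0.974), Fez1 (0.970) and Cst3 (0.970). Ahsp was 182, 82.7 and 46.6 in wild type, against 468, 289 and 604 in the knockouts. Nearest to the primitive sum were Npc2 (r = 0.996), Smim3 (0.994), Tpgs1 (0.993), Mylk3 (0.993), Epb42 (0.992), a protein of the red cell membrane, and Hsd3b6 (0.992). Epb42 was 18.7, 124 and 58.3 in wild type, against 114, 348 and 855 in the knockouts. Of genes looked at in both rankings, Alas2 had r = 0.968 with the adult and 0.791 with the primitive sum, whereas Slc4a1 had 0.653 and 0.983.

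Markers of other cells that come with blood and vessels also differed between libraries. Macrophage genes (10 of 10 tested, none at 0 in any library) summed to 795, 1400 and 1462 in wild type and 2866, 3140 and 6126 in the knockouts, and 9 of 10 were higher without overlap, beside 10.6% of all genes tested, with Csf1r at 373 ± 64.6 and 1053 ± 385 (SD, n = 3 each). Platelet genes summed to 263, 227 and 406 in wild type and 564, 608 and 1352 in the knockouts. In that list Gp9 and Gp6 were at 0 in wild type 1. Of the genes that clear haem and iron, Hmox1 was 149, 182 and 183 against 462, 297 and 618 and the iron exporter Slc40a1 61.6 ± 35.1 and 189 ± 92.8. Endothelial genes did not separate the groups as a sum (4254 to 4667 and 3752 to 5978), to which Kdr, also made by retinal progenitors, gave 902 to 4232, but 9 of 10 had positive log2 fold changes, and Pecam1 was 40.1, 226 and 213 against 617, 212 and 696. Knockout 2, which had 3.75 times the globin of the mean of wild type 2 and 3, had endothelial levels within the wild-type range for Pecam1 and for Cdh5 (291, against 66.3 to 506). Other genes of the list lay outside that range in knockout 2. Tek (148, against 6.54 to 111) and Egfl7 (295, against 96.2 to 274) were above it, and Kdr (2301, against 2427 to 4232) was below it. Pigment epithelium genes summed to 829, 5566 and 3864 in wild type and 6858, 5572 and 26982 in the knockouts. The part of these tissues in the globin difference was not tested.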

How the data were processed

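The members and the lists were chosen with earlier results of these data known. The deposited values are normalized read counts per gene, a signal that the step pattern of low values reads as estimated reads over 1 factor per library, a step by the authors that no source states. STAR 2.7.8a, cutadapt 4.2 and Partek are named beside the build GRCm39, per the submitters' processing notes, with no role. The sources used here give no counter, annotation, strand setting or scaling method. Median-of-ratios factors computed from the deposited values were 1.00 in every library. Low values were multiples of 1 read (0.897 to 1.14 units) within 0.02 steps for 75.7 to 77.4% of them, so whole reads were not recovered. A value of 0 allows up to 3 reads (2.69 to 3.41 units), which covers counting error only. Rows without a symbol (108) held 0.041% of the total and were kept in the fit.

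Groups of 3 were compared with limma-trend (limma 3.58.1, R 4.3.3) on log2(value + 1), two-sided, over the 18914 genes with at least 10 in at least 3 libraries, with Benjamini-Hochberg adjustment at 0.05. Fold changes of low genes are understated on this scale. Sums and ratios were compared by exact two-sided permutation tests. Only the limma-trend fit was tested on simulated data, which had 1 small spread for all genes, unlike the wide spread of the globins here. The sums, ratios and permutation tests were not tested in this way. Named genes were the members, the globin family, Tbx3, and the highest-mean 3 of each list (6 for membrane and other erythroid proteins, all regulators) with the 6 most alike in pattern; other names were chosen after their values were seen, and 1 listed gene is not reported here by name. Sequences are from GENCODE M21 and RefSeq (GRCm38.p6), another build than that of the counts, so no coordinates of the counted genes are given.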

Additional observations from a re-analysis of the deposited data

How the results depend on the processing

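The globin total kept its direction under all alternatives run, with a log2 difference of 1.998 to 2.06 over the pseudocounts and scalings, 2.15 from linear group means, and 1.52 to 2.37 with each library left out. With both libraries numbered 1 left out it was 2.501, and with wild type 1 and knockout 3 left out 1.66; both were chosen after seeing the data. The primitive over adult ratio ran from -0.59 (without wild type 1) to 1.04 (without knockout 1) and was -0.96 without wild type 1 and knockout 3. The counts of globin genes called were 0 except 1 with library weights (Hba-a2) and 2 without wild type 1 and knockout 3, a fit that also called 1 erythroid gene, Alas2. Leaving out each library gave 3 to 6 globins and 17 to 33 erythroid genes higher at an unadjusted p under 0.05. With 1 replicate left out the smaller group has 2 samples. Same-numbered samples are not stated to share a litter, and their deviations correlated by 0.33, 0.02 and 0.04 for numbers 1, 2 and 3. Differently numbered pairs ran from -0.30 (wild type 2 with knockout 1) to 0.23 (wild type 2 with knockout 3). The latter lies above the values for numbers 2 and 3. With the number as a block, 7 globins were higher at an unadjusted p under 0.05 against 5 without it, 0 passed adjustment (adjusted p 0.105 to 0.177), 13 genes in all were called against 12, and the total and ratio differed by 1.999 and 0.38. The share of all genes higher at an unadjusted p under 0.05 was counted only for the main fit, not for the alternatives. No scaling moved the median of all genes by more than 0.1. Over the whole table limma called 1 to 55 genes, depending on the alternative.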

Other observations

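Granulocyte genes, which no comparison of the globins uses, were uneven in the knockouts, and S100a8 and S100a9 were close to the detection floor in wild type. S100a8, an antimicrobial protein of neutrophils, was 5.60, 2.82 and 2.69 in wild type, against 843, 11.4 and 169 in the knockouts, and its partner S100a9 was 1.87, 2.82 and 0 against 1039, 29.6 and 161. knockout 1, the knockout library richest in adult relative to primitive globins, held the highest levels of both. Mpo, made by granulocyte precursors, was 8.40, 114 and 8.07 in wild type, against 41.3, 134 and 1178 in the knockouts, and so followed another order. Over all genes none of the 3 passed limma (adjusted p 0.320, 0.218 and 0.380). S100a8 and S100a9 reached the minimum value of the filter only in the knockouts. Both genes therefore passed the filter through the group where they were high, and their p-values are no support for a difference.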
